A study of Homo sapiens with 4 samples.

Results

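The MHC class I antigen presentation genes examined here are the light chain gene B2M, the heavy chain genes HLA-B, HLA-C, HLA-E and HLA-F, the peptide transporter genes TAP1 and TAP2, and the loading gene TAPBP. They are 8 of the 24483 genes in the deposited expression table and were matched by symbol. The set was selected on measured values: B2M had already been seen among the genes with the lowest ratio of NSUN2 immunoprecipitate (IP) to input in vehicle cells, and the genes that work with it were added by name. The IP and input values of B2M are therefore a description only.

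The libraries came from PANC-1, an established human pancreatic ductal adenocarcinoma line of wild-type genotype per the labels. NSUN2 is an RNA methyltransferase that places 5-methylcytosine, and RNA bound to it was pulled down with an antibody against NSUN2 during 4 h and sequenced beside the input RNA. The 4 groups were the IP from cells given 30 mM sodium lactate for 24 h, the input of the same condition, the IP from cells given the water vehicle for 24 h, and the vehicle input. Each group had 1 library. No difference therefore has a replicate check, no p-value is given for any gene, and a difference between libraries is not yet one between conditions. Intervals printed below cover counting error of reads only, and PCR copies make them too narrow. No library made with a control antibody was analysed here, so an IP value holds both RNA bound to NSUN2 and RNA carried along.

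MHC class I molecules show peptides from inside the cell to CD8+ T cells. A heavy chain pairs with the light chain β2-microglobulin, which B2M encodes, and without it most heavy chains do not reach the cell surface. TAP1 and TAP2 form the transporter that moves cytosolic peptides into the endoplasmic reticulum, where tapasin, the product of TAPBP, holds empty class I molecules next to the transporter until a peptide binds.

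The promoters are shown because these genes lie in separate places yet are known to be induced together by interferon, through the interferon-stimulated response element. B2M (ENSG00000166710) lies on chromosome 15, at chr15:44711517-44718145 on the plus strand in the RefSeq annotation of GRCh38.p14. The other genes lie in the MHC on chromosome 6. HLA-F (ENSG00000204642) spans chr6:29723434-29738532 and HLA-E (ENSG00000204592) chr6:30489509-30494194, both on the plus strand. On the minus strand are HLA-C (ENSG00000204525, chr6:31268749-31272092), HLA-B (ENSG00000234745, chr6:31353875-31357179), TAP2 (ENSG00000204267, chr6:32821831-32838739), TAP1 (ENSG00000168394, chr6:32845209-32853704) and TAPBP (ENSG00000231925, chr6:33299694-33314078).

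RefSeq promoter sequences of GRCh38.p14, from 250 bases before to 50 bases after the gene start, were matched for 7 of the 8 genes, HLA-E being the other one. Each of the 7 held AANNGAAA, the core that interferon regulatory factors recognise, on at least 1 strand, and 23.2% of 27305 promoters of the same length held it. The windows below show 1 such match per gene in capitals, read 5′ to 3′ on the strand that carries it. They are chr15:44711370-44711399 (plus strand) for B2M, chr6:31357316-31357345 (plus) for HLA-B, chr6:31272225-31272254 (plus) for HLA-C, chr6:29723267-29723296 (minus) for HLA-F, chr6:32853814-32853843 (plus) for TAP1, chr6:32838777-32838806 (minus) for TAP2 and chr6:33314072-33314101 (minus) for TAPBP.
B2M: taagaaaaggaAACTGAAAacgggaaagtc
HLA-B: gttgggagaagAAGTGAAActcaggggagt
HLA-C: caggttgggagAAGTGAAActcaggggagt
HLA-F: gttgggagagaAAGAGAAActctggggaga
TAP1: catttaggggaAAGCGAAAtcgaaagcggc
TAP2: tggggaagcgaAAGCGAAAgctgcccgagc
TAPBP: gaggaaagtgaAAGTGAAAggaggaagagg
The HLA-B and HLA-C windows carry the same capitals and the same bases after them. The HLA-F, HLA-B, HLA-C and TAP1 matches lay on the strand opposite the gene, at −156, −155, −151 and −128 from the gene start. The B2M, TAP2 and TAPBP matches lay on the gene's own strand, at −136, −56 and −12. B2M, TAP1, TAP2 and TAPBP each held a second match that overlapped the first by part of its length. TGACG, the core of the element that CREB-type factors recognise, was found on either strand in the promoters of B2M, HLA-B, HLA-C and TAP2, 4 of 7, against 25.0% of all promoters, and it overlapped none of the matches above. A match is a description of letters and shows no bound factor.

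Depth differed between the libraries. The recovered total was 15189967 reads in the lactate IP, 11175432 in the lactate input, 13620414 in the vehicle IP and 17626197 in the vehicle input. Genes not encoded by mitochondria took 13.9%, 20.9%, 30.3% and 31.3% of these reads in the same order, so FPKM (fragments per kilobase of gene, scaled to the library total) of nuclear genes as a whole was lowest in the lactate IP. For this reason the comparisons between conditions are also given relative to the median gene and at equal sums over nuclear genes. Equal nuclear sums moved the median gene to 0.70 and 0.68 for IP over input in lactate and vehicle cells, 0.09 between the inputs and 0.11 between the IPs, on the log2 scale. The labelled cell type was set against markers: 6 epithelial and ductal markers summed to 125.4 FPKM in the lactate IP, 60.4 in the lactate input, 380.1 in the vehicle IP and 150.5 in the vehicle input, most of it the keratins KRT18 and KRT8. The other 4 were lower: KRT19 had 1.61 to 11.3 FPKM and EPCAM 0.108 to 1.56 FPKM over the 4 libraries, and KRT7 and CDH1 did not reach 1 FPKM in any. Summed FPKM of 6 of 8 class II and antigen-presenting cell markers was between 0.0791 and 0.517 in the 4 libraries, and that of 3 of 9 immune markers between 0.104 and 0.373, with none of these genes reaching 1 FPKM and the leukocyte marker PTPRC at 0 reads in both inputs. In bulk RNA, fewer cells of a type and less RNA per cell cannot be told apart.

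B2M was the most abundant of these transcripts in both inputs and stood below HLA-E in both IPs. It had 16.4 FPKM in the lactate IP (779 reads) against 240.7 FPKM in the lactate input (8396 reads), and 12.7 FPKM in the vehicle IP (540 reads) against 351.2 FPKM in the vehicle input (19320 reads). In each condition the input thus stood far above the IP, for a gene chosen on its low ratio in vehicle cells. Reads of B2M were 0.0369% of nuclear reads in the lactate IP (95% Wilson interval 0.0344 to 0.0396), 0.359% in the lactate input (0.351 to 0.367), 0.0131% in the vehicle IP (0.0120 to 0.0142) and 0.351% in the vehicle input (0.346 to 0.355). On this nuclear scale the inputs nearly met, while the lactate IP held a larger share than the vehicle IP.

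**Figure D1:**
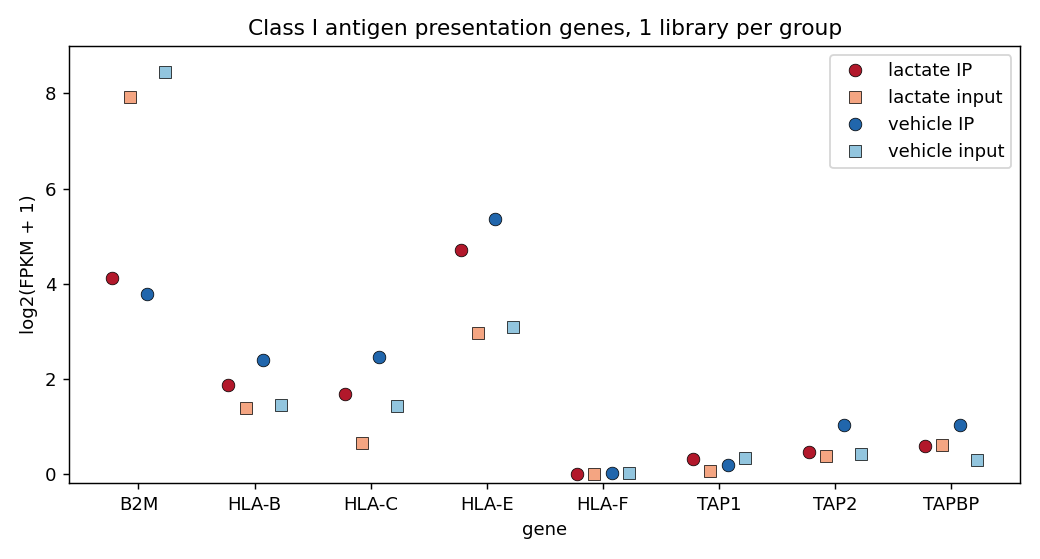
Level of the 8 genes in each of the 4 libraries, as log2(FPKM + 1), with 1 point per library. In each condition B2M is lower in the IP than in the input, while HLA-E is higher in the IP than in the input.

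HLA-E, a non-classical heavy chain that presents leader peptides of other class I molecules to NK cell receptors, was the most abundant heavy chain among the members. It had 25.1 FPKM in the lactate IP (1114 reads) against 6.74 FPKM in the lactate input (220 reads), and 40.03 FPKM in the vehicle IP (1593 reads) against 7.51 FPKM in the vehicle input (387 reads). The IP was above the input in each condition. HLA-B, a classical heavy chain that presents peptides to CD8+ T cells, had 2.66 FPKM in the lactate IP (187 reads), 1.61 in the lactate input (83 reads), 4.26 in the vehicle IP (268 reads) and 1.74 in the vehicle input (142 reads). HLA-C, the other classical heavy chain here and a main ligand of NK cell inhibitory receptors, had 2.21 FPKM (84 reads), 0.571 (16 reads), 4.45 (152 reads) and 1.70 (75 reads) in the same order. For both genes the IP exceeded the input in each condition. HLA-F, a non-classical heavy chain, gave 0 reads in the lactate IP and the lactate input and 1 read each in the vehicle IP and the vehicle input. A count of 0 allows up to 0.0458 FPKM in the lactate IP and 0.0622 FPKM in the lactate input, so no ratio is given for it.

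The transporter and loading genes had low gene counts, although peak intervals at the 3′ ends of TAP1 and TAPBP held more IP reads than these counts, as given with the peaks. TAP1 had 0.236 FPKM (17 reads) in the lactate IP, 0.0378 (2 reads) in the lactate input, 0.139 (9 reads) in the vehicle IP and 0.263 (22 reads) in the vehicle input. TAP2 had 0.381 FPKM (60 reads), 0.294 (34 reads), 1.04 (147 reads) and 0.334 (61 reads) in that order, with the vehicle IP highest. TAPBP had 0.505 FPKM (51 reads), 0.511 (38 reads), 1.04 (94 reads) and 0.213 (25 reads), again highest in the vehicle IP and lowest in the vehicle input. For TAP1 the lactate input was lowest, on 2 reads. Class I heavy chains share long stretches of sequence, and the sources used here do not say how reads matching several genes were counted, so the split of reads among the heavy chain genes is uncertain.

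Ratios are given as log2 of FPKM + 1 for genes reaching 1 FPKM in at least 1 of the compared libraries, with a threshold of 2-fold, and the read-based ratio without the pseudocount follows with its 95% interval. In lactate cells, IP over input was −3.79 for B2M, which is 14.6-fold lower by reads (log2 −3.87, interval −3.98 to −3.77). It was 1.75 for HLA-E (1.90, interval 1.69 to 2.11), 1.03 for HLA-C (1.95, 1.17 to 2.82) and 0.49 for HLA-B (0.73, 0.35 to 1.12). B2M ranked 19th from the lowest of 7140 nuclear genes, and HLA-E 7002nd of all 7170 genes. Of the 4 members measured, 2 were past 2-fold higher and 1 lower, where 16.0% of all genes were higher and 23.3% lower. TAP1, TAP2, TAPBP and HLA-F did not reach 1 FPKM in either lactate library.

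In vehicle cells, IP over input was −4.68 for B2M, 27.6-fold lower by reads (log2 −4.79, interval −4.92 to −4.67), which placed it 4th from the lowest of 9067 nuclear genes. HLA-E stood at 2.27 (2.41, 2.25 to 2.58), 5.33-fold higher by reads, ranking 8955th of 9099 genes. HLA-C stood at 1.02 (1.39, 0.98 to 1.81), HLA-B at 0.94 (1.29, 0.99 to 1.59), TAPBP at 0.75 (2.28, 1.63 to 2.98) and TAP2 at 0.61 (1.64, 1.20 to 2.10). Of the 6 measured, 2 were past 2-fold higher and 1 lower, where 27.6% of all genes were higher and 15.3% lower. Relative to the median gene, 1 member, HLA-E, remained past 2-fold higher in vehicle cells. The median gene was at 0.44 in vehicle cells and −0.10 in lactate cells, and the median of the members measured was 0.84 over 6 genes and 0.76 over 4.

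**Figure D2:**
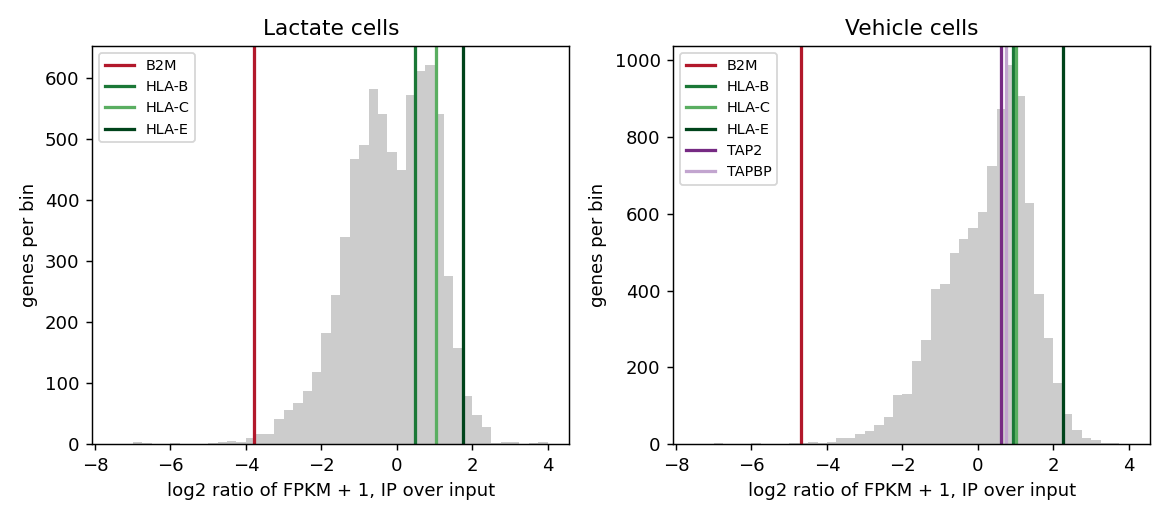
Histograms of log2(FPKM + 1) ratios, IP over input, over all genes measured in lactate cells (left) and vehicle cells (right), with a coloured line for each member measured. B2M stands at −3.79 in lactate cells and −4.68 in vehicle cells, in the left tail, and HLA-E at 1.75 and 2.27 in the right part.

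The balance of light to heavy chain transcripts differed between IP and input. B2M FPKM divided by the summed FPKM of HLA-B, HLA-C, HLA-E and HLA-F was 0.548 in the lactate IP and 27.002 in the lactate input, and 0.261 in the vehicle IP and 32.02 in the vehicle input. HLA-E made up 83.8% of the summed member heavy chains in the lactate IP and 75.6% in the lactate input, and 82.1% in the vehicle IP and 68.5% in the vehicle input. The heavy chain sum exceeded B2M in both IPs, and B2M exceeded the sum in both inputs.

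**Figure D3:**
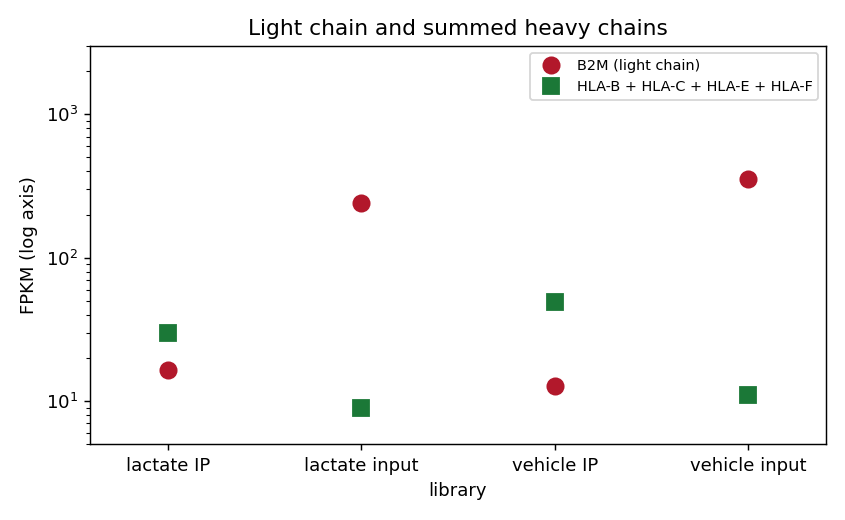
FPKM on a log axis of B2M and of HLA-B, HLA-C, HLA-E and HLA-F summed, in each of the 4 libraries. B2M lies below the heavy chain sum in both IPs and above it in both inputs.

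Among 862 nuclear genes with at least 10 FPKM in both inputs, the 5 with the pattern most like B2M over the 4 libraries were LRRC40, ARF4, CRYZ, SDHD and MTND1P23. Likeness was the Euclidean distance between centred log2(FPKM + 1) values, 0.257 for LRRC40, 0.525 for ARF4, 0.536 for CRYZ, 0.584 for SDHD and 0.643 for MTND1P23, against a median of 3.30 over the candidates. LRRC40 stood at −4.02 and −4.45 for IP over input in lactate and vehicle cells, and ARF4, a small GTPase of the secretory pathway, at −3.36 and −4.08. MTND1P23 is a pseudogene of a mitochondrial gene, so its reads may belong to that gene.

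Comparison of the inputs asks how lactate related to the transcripts before the pull-down. On FPKM + 1, lactate input over vehicle input was −0.54 for B2M (read-based interval −0.58 to −0.51), −0.78 for HLA-C, −0.14 for HLA-E and −0.07 for HLA-B, against −0.43 for the median gene. Relative to the median gene B2M stood at −0.11, HLA-C at −0.35, HLA-E at 0.29 and HLA-B at 0.36. At equal nuclear sums B2M stood at 0.13, HLA-E at 0.44, HLA-B at 0.33 and HLA-C at −0.41, so the direction for B2M, HLA-E and HLA-B depended on the scale. HLA-C was lower on all 3 scales, on 16 reads in the lactate input and 75 in the vehicle input (read-based −1.57, interval −2.45 to −0.78). None of the 4 members measured was past 2-fold, where 1.76% of all genes were higher and 6.46% lower.

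In the IPs, B2M and the other 5 members that passed the filter lay on opposite sides of 0 on FPKM + 1. Lactate IP over vehicle IP was 0.35 for B2M (read-based 0.37, interval 0.21 to 0.53), and −0.52 for HLA-B, −0.77 for HLA-C, −0.65 for HLA-E, −0.56 for TAP2 and −0.44 for TAPBP, with the median gene at −0.74. Relative to the median gene B2M stood at 1.09, HLA-B at 0.22, HLA-C at −0.02, HLA-E at 0.09, TAP2 at 0.18 and TAPBP at 0.30. At equal nuclear sums the values were 1.45 for B2M, 0.39 for HLA-B, 0.12 for HLA-C, 0.47 for HLA-E, −0.13 for TAP2 and 0.06 for TAPBP, of which TAP2 and TAPBP fell under the filter on that scale. B2M was higher in the lactate IP on all 3 scales, and the sign of the other 5 changed with the scale. The vehicle IP value of B2M is part of what it was chosen on, so its direction here is a description only. None of the 6 measured was past 2-fold on FPKM + 1, where 1.64% of all genes were higher and 27.7% lower.

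**Figure D4:**
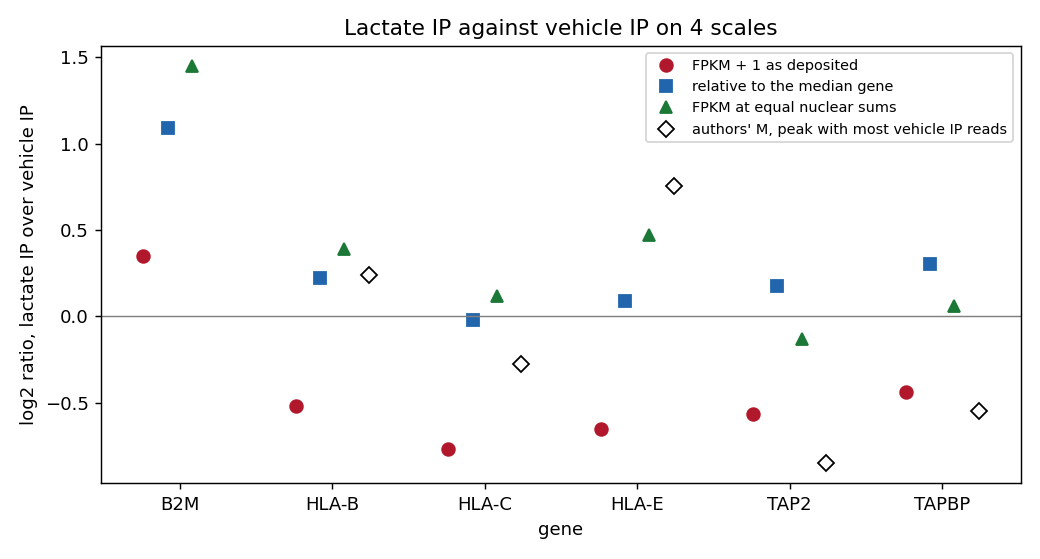
Log2 ratio of lactate IP over vehicle IP for the 6 members measured, on FPKM + 1, relative to the median gene, at equal nuclear sums, and as the authors' M for the peak with the most vehicle IP reads. B2M, which has no peak, lies above 0 on the 3 gene scales, while HLA-E lies at −0.65, 0.09 and 0.47 on them.

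The enrichment of IP over input, lactate minus vehicle, was 0.89 for B2M (read-based 0.92, interval 0.75 to 1.08), ranking 9116th from the lowest of 9445 genes, against −0.36 for the median gene. It was −0.45 for HLA-B, 0.01 for HLA-C, −0.51 for HLA-E, −0.52 for TAP2 and −0.75 for TAPBP. Relative to the median gene B2M stood at 1.25, HLA-B at −0.09, HLA-C at 0.37, HLA-E at −0.16, TAP2 at −0.16 and TAPBP at −0.40. At equal nuclear sums B2M stood at 1.32, HLA-B at 0.06, HLA-C at 0.53, HLA-E at 0.03, TAP2 at −0.24 and TAPBP at −0.39. B2M and HLA-C were above 0 and TAP2 and TAPBP below 0 on all 3 scales, while the sign for HLA-B and HLA-E depended on the scale. For HLA-C the read-based interval was −0.31 to 1.43, and a pseudocount of 5 gave −0.13. Read-based values were −1.26 for TAP2 (interval −2.01 to −0.52) and −2.30 for TAPBP (−3.18 to −1.42). The TAPBP value rests on 51 IP and 38 input reads in lactate cells and 94 and 25 in vehicle cells. By reads, the lactate input of TAPBP over its vehicle input was 1.26 (interval 0.50 to 2.05). The peak at the 3′ end of TAPBP held more IP reads than these counts and cannot be assigned to 1 gene. There the authors' fold was 4.81 in lactate and 5.00 in vehicle cells. At equal nuclear sums TAP2 and TAPBP fell under the filter. None of the 6 members was past 2-fold on FPKM + 1, where 3.04% of all genes were higher and 9.56% lower. B2M was thus low in both IPs and less so in the lactate IP, and with 1 library per group the spread of this difference is unknown. The vehicle ratio on which B2M was chosen is part of this difference. Its value, rank and interval are therefore a description only.

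The authors' peak lists, called per condition with the IP against its own input, gave no peak on B2M in either condition. B2M was chosen on its low ratio of IP to input in vehicle cells, so this absence is a description only. A fold and q of a peak are the authors' own, from the authors' deposited table. The lactate list held 9 peaks on 5 of the 8 members, 6 of them at q of 0.01 or less, where 35.5% of its 48104 peaks were. The vehicle list held 11 peaks on 6 members, 8 of them at that q, where 40.3% of its 95785 peaks were. Of these, 6 of 9 in the lactate list and 7 of 11 in the vehicle list were annotated to a 3′ UTR, against 18.1% and 15.8% of peaks on protein-coding genes in those lists. Several lay far from the gene's 3′ end. In the lactate list, summits were 2308 bases away for HLA-C (q of 0.979) and 1872 for TAP1 (q of 0.0645). In the vehicle list, they were 1665 bases away for HLA-C and 3714 and 6672 for TAP2. The label thus does not place each peak at the gene's 3′ end. Of the peaks listed under members, the lists shared 4 by at least 1 base, 1 on HLA-B, 1 on HLA-C and 2 on HLA-E, which is 44.4% of the lactate and 36.4% of the vehicle peaks. Counted by position, whatever gene a peak was listed under, 6 of 10 lactate and 6 of 15 vehicle peaks in the intervals of the members overlapped, the other 2 lying at the 3′ ends of TAP1 and TAPBP. Over the whole lists 56.4% of the lactate and 27.8% of the vehicle peaks overlapped the other list.

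HLA-E had the lowest q among peaks listed under the members. In the authors' deposited table for lactate cells its 3′ UTR peaks lay at chr6:30492794-30493335 with a fold of 4.65 and q of 9.11e-96, and at chr6:30493675-30494194 with a fold of 5.37 and q of 9.63e-36. In the vehicle table they lay at chr6:30492564-30493370 with a fold of 8.07 and q of 9.18e-231, and at chr6:30493585-30494282 with a fold of 10.3 and q of 6.46e-123. HLA-C had a 3′ UTR peak with a fold of 8.69 in lactate cells and 3.59 in vehicle cells, and HLA-B one near its 3′ end with a fold of 1.70 and 2.16. TAP2 had 2 peaks annotated to a 3′ UTR in the vehicle table alone, with folds of 2.48 and 3.71. HLA-F had 1 exon peak in that table, with a fold of 3.30 and q of 0.0563 on 1 read of the vehicle IP.

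TAP1 and TAPBP each had a strong peak at the 3′ end, where another annotated gene overlaps. The TAP1 peak at chr6:32845222-32845771 had a fold of 6.06 and q of 3.7e-53 in the lactate table, under TAP1, and at chr6:32845141-32845764 a fold of 10.5 and q of 4.54e-202 in the vehicle table, where it was listed under PSMB8-AS1. That peak interval held 251 reads in the lactate IP and 478 in the vehicle IP, while TAP1 itself was counted with 17 and 9 reads. PSMB8-AS1 was counted with 0 reads in both IPs. The TAPBP peak was listed under an unnamed lncRNA gene, with a fold of 4.81 at chr6:33299589-33300139 in the lactate table and 5.00 at chr6:33299585-33300171 in the vehicle table. It held 1079 and 1505 reads in the lactate and vehicle IP, while TAPBP was counted with 51 and 94 reads. The listed lncRNA gene was counted with 1 and 0 reads in the lactate and vehicle IP. RGL2, at chr6:33291654-33301612, also spans this peak and was counted with 99 and 251 reads in these IPs. The kit does not mark strand and these genes overlap, so peak reads cannot be assigned to any 1 of them. The cause of the gap between peak reads and gene reads was not tested.

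**Figure D5:**
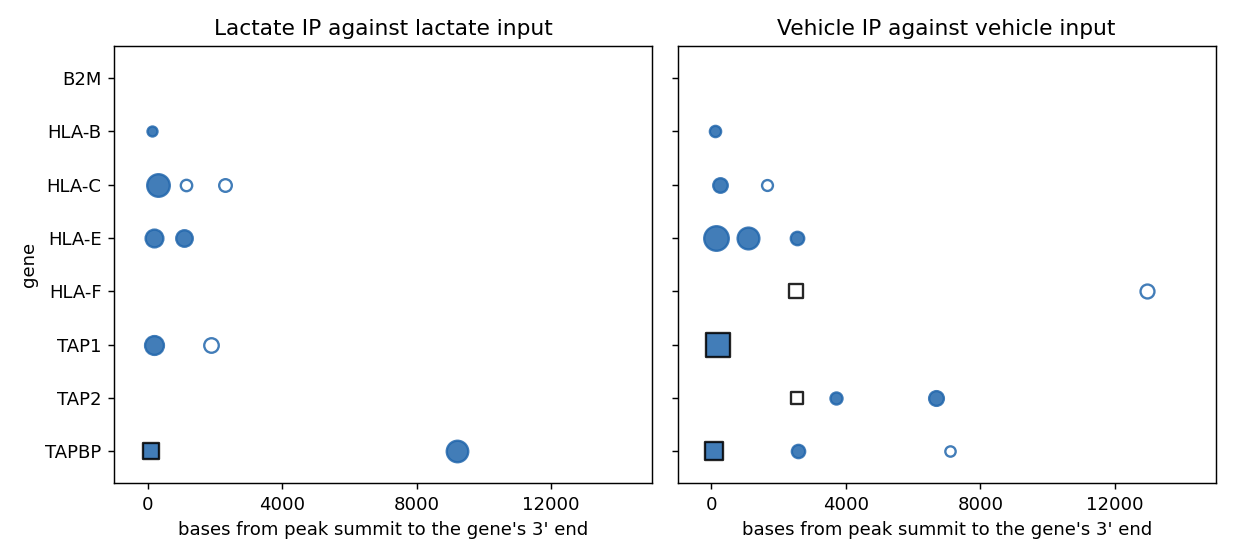
Peaks in the intervals of the 8 genes, by distance from peak summit to the gene's 3′ end, for lactate IP against input (left) and vehicle IP against input (right). Marker size follows the authors' fold, filled markers have q of 0.01 or less, circles are listed under the gene and squares under another gene. B2M has no marker.

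The authors also compared the 2 IPs at each peak and gave M, the log2 ratio of lactate over vehicle read density. In the authors' deposited table, M was above 0 at 9 and below 0 at 7 of 16 peaks listed under members, with a median of 0.18 against −0.50 over all 116484 peaks. Past 2-fold, 1 peak was higher (TAPBP, on 22 reads in the lactate IP and 6 in the vehicle IP). In the same order, 2 were lower, HLA-F on 0 and 1 reads and TAP2 on 14 and 39 reads. Of all peaks, 13.9% were higher and 38.6% lower. M was rescaled by a line in the mean density A, which raises M at dense peaks: the offset was 1.24 at the HLA-E peaks. In the authors' deposited table M was 0.73 and 0.75 at these HLA-E peaks, with 626 and 646 reads in the lactate IP and 889 and 907 in the vehicle IP. Reads per library total gave log2 ratios of −0.66 and −0.65 there. Likewise the HLA-B peak had 119 reads in the lactate IP and 181 in the vehicle IP, with M of 0.24 in the authors' deposited table and a log2 ratio of reads per total of −0.76. At the TAP1 3′ end peak M in the authors' deposited table was 0.12, and the log2 ratio of reads per total was −1.09. At the peak on the TAPBP 3′ end, listed under another gene, these were 0.89 and −0.64. The direction at these HLA-E, HLA-B, TAP1 and TAPBP peaks thus depended on the normalization. At the 4 HLA-C peaks and the HLA-E exon peak the sign of M in the authors' deposited table was that of the reads per total.

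The class I pathway list, which includes the members, held 31 genes, 29 of them matched. IP over input in lactate cells could be measured for 15: 4 were past 2-fold higher and 4 lower, with a median of 0.46, where 16.0% of all genes were higher and 23.3% lower. In vehicle cells it could be measured for 22, of which 8 were higher and 3 lower, with a median of 0.68, where 27.6% of all genes were higher and 15.3% lower. CALR, the chaperone calreticulin of the loading complex, stood at 1.53 in lactate and 1.77 in vehicle cells. CANX, the membrane chaperone calnexin that holds new heavy chains, stood at −1.14 and −0.62, on 4058 reads in the lactate IP against 6780 in the lactate input and 7399 in the vehicle IP against 14851 in the vehicle input. The 2 chaperones lay on opposite sides of 0 in both conditions. PDIA3, the thiol oxidoreductase of the loading complex, stood at 0.46 and 1.05.

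Of the immunoproteasome genes, PSMB8 stood at 0.87 in lactate and 1.64 in vehicle cells, and PSMB9 at −0.15 in vehicle cells. ERAP2, an aminopeptidase that trims peptides in the endoplasmic reticulum, stood at 0.05 in vehicle cells, and ERAP1 did not reach 1 FPKM. The regulators were low: NLRC5, the class I transactivator, was counted with 3, 1, 1 and 0 reads in the lactate IP, lactate input, vehicle IP and vehicle input. IRF1 was counted with 49, 15, 92 and 33 reads in the same order. IRF2 stood at −1.05 in vehicle cells, on 10 reads in the IP and 153 in the input.

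Between conditions no pathway gene measured was past 2-fold higher on FPKM + 1. Of all genes, 1.76% were higher in the inputs, 1.64% in the IPs and 3.04% for the difference in enrichment. Of 19 pathway genes measured in the inputs 1 was lower, where 6.46% of all genes were, with a median of −0.46 against −0.43 over all genes. Of 20 in the IPs 7 were lower, where 27.7% of all genes were, with a median of −0.84 against −0.74. Of 22 for the difference in enrichment 2 were lower, SEC61G and RFX5, where 9.56% of all genes were, with a median of −0.45 against −0.36. Relative to the median gene, 1 pathway gene, B2M, was past 2-fold higher and 1 lower in the IPs. For the difference on that scale 2 were higher, B2M among them, and 0 lower. The constitutive proteasome partners PSMB5, PSMB6 and PSMB7 were within 2-fold for IP over input in both conditions, while PSMB7 was past 2-fold lower with lactate in the inputs and PSMB6 and PSMB7 in the IPs.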

How the data were processed

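The data were 1 library per group of PANC-1 RNA, IP and input, in lactate and vehicle cells. DiffBind, HOMER 4.11.1, MACS2 2.2.7.1, HISAT2 2.1.0, fastp 0.20.1, bedtools 2.29.2 and the build GRCh38 are named in the submitters' processing notes. Which tool counted reads per gene, and whether strand was used, is not given in the sources read here. The authors deposited gene values as FPKM. Per the file headers the authors' peak lists give a fold (ratio), a p-value, a q-value and −log10 values, and the authors deposited an IP comparison with normalized density (signal) and log2 M and A values.

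Whole reads were recovered from FPKM as the smallest set of 4 integers in the ratio of a gene's values, so a factor common to all 4 is lost. All 72383 values above 0 that were recovered were given back within 1e-09 of their size, and 1 gene was not recovered. Peak reads came out whole within 0.02 reads at 113280 of 113280 peaks under 200 reads. The recovery was tested on simulated data. Ratios used log2(FPKM + 1), which understates changes of low genes, genes with at least 1 FPKM in a compared library, and 2-fold as the threshold. Intervals are exact conditional binomial (95%) for ratios of reads, Wald for differences of enrichment and Wilson for shares. No test across genes was run, since each group had 1 library.

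All 8 members, the loading and trimming genes, the immunoproteasome genes, NLRC5, IRF1 and IRF2 were named by rule, with the 5 genes most like B2M. Some genes of the lists are not reported here. The members and lists were chosen with earlier results of these data known. Alternatives changed the pseudocount, the filter, the scale, the peak thresholds and the overlap. Python 3.11.15, pandas 2.3.3, NumPy 2.4.6, SciPy 1.17.1 and matplotlib 3.10.9 were used.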

Additional observations from a re-analysis of the deposited data

Results flagged for a closer look

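TAP1 and TAPBP had ratios of IP over input on opposite sides of 0 in the 2 conditions. TAP1 stood at 0.25 in lactate cells and −0.15 in vehicle cells, and TAPBP at −0.01 (−0.0062) in lactate cells and 0.75 in vehicle cells, on log2(FPKM + 1). Relative to the median gene TAPBP stood at 0.09 in lactate and 0.31 in vehicle cells, and at equal nuclear sums at 0.36 in lactate and 0.74 in vehicle cells, so its opposite signs held on FPKM + 1 alone among these scales. With 1 library per group each sign rests on a pair of libraries, the TAP1 values rest on 2 to 22 reads, and the difference between conditions was not tested.

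Signal lay in peaks within TAP1 and TAPBP that the authors' deposited tables listed under another gene. The authors' fold was 4.81 at the 3′ end of TAPBP in lactate cells, 10.5 at the 3′ end of TAP1 in vehicle cells and 5.00 at the 3′ end of TAPBP in vehicle cells. Which overlapping gene these reads came from was not tested.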

How the results depend on the processing

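The ratios of B2M, HLA-B, HLA-C and HLA-E for IP over input kept their sign in both conditions under the alternatives that gave a value, and a filter of 5 FPKM left B2M and HLA-E alone. Over all 5 comparisons, 15 of 134 values of members changed sign under an alternative, 5 for the inputs, 7 for the IPs and 3 for the difference in enrichment. With a pseudocount of 0.1, members past 2-fold for IP over input in vehicle cells numbered 6 (5 higher and 1 lower), against 3 with a pseudocount of 1. A pseudocount of 5 left 2 members past 2-fold in each condition, with HLA-C at 0.37 in lactate and 0.50 in vehicle cells. Equal nuclear sums gave 4 of 4 measured in each condition, with HLA-B at 1.18 in lactate and 1.12 in vehicle cells. On that scale the median gene itself stood at 0.70 in lactate and 0.68 in vehicle cells. Shares of all genes past 2-fold were not counted under the alternatives, so these counts of members have no background beside them. A pseudocount of 0.1 gave 1 lower for the inputs, 1 lower for the IPs and 2 lower for the difference in enrichment, against 0 each. Relative to the median gene, and at equal nuclear sums, 1 member, B2M, was past 2-fold higher for the IPs and 1 for the difference, against 0. Among the authors' IP comparison peaks with A of at least 5, 0 of 5 were past 2-fold, against 3 of 16. The cause of these changes was not tested. No paired analysis was possible because each group had 1 library, and no library could be left out. Peaks shared by position were counted after the data were seen. Few gene reads limit the ratios of TAP1 and HLA-F.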

Other observations

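Other lists described genes that belong to no comparison above. Of the class I-like and NK ligand list, 9 of 10 genes matched. For IP over input in vehicle cells 1 of 5 measured was past 2-fold higher, where 27.6% of all genes were. It was FCGRT, the neonatal Fc receptor heavy chain that also pairs with B2M, at 1.33, or 0.88 relative to the median gene. MICB, a stress ligand that does not need B2M, stood at −0.35 in lactate and −0.42 in vehicle cells. Of the interferon list, 18 of 19 genes matched. IP over input was past 2-fold higher for 1 and lower for 2 of 6 measured in lactate cells, where 16.0% of all genes were higher and 23.3% lower, and higher for 2 and lower for 1 of 7 in vehicle cells, where 27.6% were higher and 15.3% lower. IFNGR1, a chain of the interferon gamma receptor, stood at −2.03 in lactate and −1.42 in vehicle cells, and ISG15 at 1.01 and 1.05. Of 9 class I pseudogenes, 3 matched and none reached 1 FPKM in any library.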
